A study of Mus musculus with 12 samples.

Results

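The inflammatory CC chemokines draw monocytes, macrophages, T cells and NK cells into inflamed tissue and tumors. Followed here are 9 genes of this family, the ligands Ccl2, Ccl3, Ccl4, Ccl5, Ccl7, Ccl8 and Ccl12 and the receptors Ccr1 and Ccr2. They were chosen by name, as the rows whose Ensembl identifiers map to these symbols, and make up 9 of the 55401 genes in the table of counts. All 9 passed the filter on low counts, as 9 of the 20818 genes tested. The counts come from RNA sequencing of 12 TC2Ras tumors collected 21 days after implantation, in 4 groups of 3. TC2Ras is a Ras-driven mouse prostate cancer line, so that the tumor cells of every group come from 1 line. Control tumors grew from 125000 TC2Ras cells injected subcutaneously into both flanks of mice drinking water with 0 ppb inorganic arsenic (iAs). ASC tumors had 1% adipose-derived stromal cells (ASC) among the cells implanted, taken from male C57BL/6 mice transgenic for GFP. As300 tumors (A300 in the labels) formed from TC2Ras cells alone while the hosts drank water containing 300 ppb iAs. For ASC_As300 tumors (ASC300 in the labels) both were combined, the cell mixture and 300 ppb iAs. In all groups the hosts were kept on low-arsenic AIN-76A chow and Milli-Q water before implantation, and the strain and age of the hosts are not given in the sources used here. Each library holds the combined flank tumors of a mouse. The comparisons ask whether ASC, iAs or both together change the level of these genes in the tumor.

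CC chemokines are small secreted proteins named for a pair of neighboring cysteines, which fold the chain around its core. Cells at a site of injury or infection release them, and leukocytes that carry G protein-coupled CC receptors crawl toward the source. Ccl2, Ccl7 and Ccl12 are ligands of CCR2, the receptor that brings classical monocytes out of the bone marrow, and Ccl8 belongs to the same monocyte chemoattractant group. Ccl3 and Ccl4 are the macrophage inflammatory proteins and Ccl5 is also called RANTES, and Ccl3 and Ccl5 bind CCR1. Tumor-associated macrophages, activated T cells and NK cells are known sources of these ligands.

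All 7 ligand genes lie on chromosome 11, in 2 groups (GENCODE M21 on GRCm38). Ccl2 (chr11:82035571-82037453, plus strand), Ccl7 (chr11:82045712-82047525, plus strand), Ccl12 (chr11:82101845-82103400, plus strand) and Ccl8 (chr11:82115185-82116799, plus strand) are neighbors. Ccl5 (chr11:83525778-83530518, minus strand), Ccl3 (chr11:83647844-83649355, minus strand) and Ccl4 (chr11:83662584-83664683, plus strand) form the other group. Ccr1 (chr9:123962124-123968692, minus strand) and Ccr2 (chr9:124101950-124113557, plus strand) lie on chromosome 9. The cysteine pair that gives the family its name is encoded in exon 2 of 3 in each ligand gene. The 45 coding bases around it are shown 5′ to 3′ to let the members be compared, with the 6 bases of the cysteine codons in capitals.
Ccl2: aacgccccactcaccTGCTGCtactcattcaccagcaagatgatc
Ccl7: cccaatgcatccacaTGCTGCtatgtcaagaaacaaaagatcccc
Ccl8: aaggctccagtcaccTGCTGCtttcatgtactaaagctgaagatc
Ccl12: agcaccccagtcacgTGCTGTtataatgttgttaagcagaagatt
Ccl3: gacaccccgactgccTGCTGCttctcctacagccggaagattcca
Ccl4: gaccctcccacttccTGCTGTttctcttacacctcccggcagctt
Ccl5: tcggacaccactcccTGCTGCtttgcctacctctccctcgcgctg
The cysteine codons were TGCTGC in 5 ligands and TGCTGT in Ccl12 and Ccl4. Over their coding sequences, Ccl3 and Ccl4 were identical at 71.1% of 270 aligned bases, and Ccl8 and Ccl12 at 71.2% of 288. Reads can still be told apart, since no stretch of 50 bases in a ligand or in Ccr1 occurred in the annotated transcripts of another gene on either strand. For Ccr2, 1.91% of such stretches did. No exon of a member overlapped an exon of another gene on either strand.

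The total count per tumor lay between 39157647 and 55168642, and the lowest count of any member was 54, for Ccl4, so that every member was detected in all 12 tumors. Levels are given as CPM, the counts scaled to the same effective library total in every tumor (TMM scaling), and intervals of fitted changes are 95% confidence intervals of log2 fold changes from edgeR's quasi-likelihood fit. A call needed an adjusted p under 0.05 over all genes tested and a change of at least 1.5-fold. Alternatives are other settings of the test and fits that leave out 1 tumor, 21 for each pair of groups and 20 for effects over both levels. The labels name adipose-derived stromal cells as the cell type, while their protocols describe tumors. The summed level of 9 stromal markers, such as Pdgfra and Col1a1, was between 3695 and 4635 CPM in the 6 tumors without ASC and between 4018 and 6203 CPM in the 6 with ASC, ranges that overlapped. The 6 epithelial markers summed to 64.7 to 361 CPM without ASC and 25.5 to 47.1 CPM with ASC. These sums did not overlap, but they were carried by Krt8, and 0 of the 6 markers were called over both iAs levels. The highest sum, 361 CPM, was that of Control replicate 1, and the next was 117.5 CPM. Krt5 was at 0 in 8 tumors. Control replicate 1 stood apart from the other tumors in B and plasma cell markers (171 CPM, against at most 11.1 CPM elsewhere) and in T cell markers, and results are also given without it. The summed skeletal muscle markers, such as Acta1 and Ckm, stood apart in 2 other tumors. They were at 922.4 CPM in Control replicate 2 and 1147 CPM in As300 replicate 1, against at most 207 CPM elsewhere.

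Compared per kilobase of annotated exon, the levels of the members spanned more than an order of magnitude. In Control tumors Ccl8 was highest, at 64.0 ± 11.8 CPM per kb (SD, n = 3), followed by Ccl2 at 51.7 ± 2.73, Ccl7 at 42.9 ± 9.51 and Ccl12 at 35.7 ± 4.84. Neighbors in this order overlapped from tumor to tumor. The length used is the union of all annotated exons, which for Ccl2 was 1138 bases in 2 blocks. The Ccl2 transcript with the cysteine codons shown above has 3 exons, so that this union takes in bases between them. That lowers Ccl2 per kb, and its order against Ccl8 may depend on the length used. Ccl5 followed at 20.9 ± 3.83 CPM per kb (SD, n = 3), below every Control value of Ccl12. The receptor Ccr1 was at 8.44 ± 1.71 and Ccr2 at 4.84 ± 1.33 CPM per kb (SD, n = 3). Ccl3, at 2.997 ± 0.361, and Ccl4, at 2.67 ± 0.782 CPM per kb (SD, n = 3), were lowest, with ranges that overlapped each other. In ASC tumors the order at the bottom was different, with Ccl3 at 12.6 ± 5.05 and Ccl4 at 12.7 ± 4.02 CPM per kb (SD, n = 3) beside Ccr1 at 11.2 ± 2.51 and Ccr2 at 6.11 ± 1.26. The lowest Ccl3 tumor was within the range of Ccr2, and every Ccl4 value was above it. Ccl8 was highest in ASC tumors too, at 183 ± 69.3 CPM per kb (SD, n = 3).

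**Figure D1:**
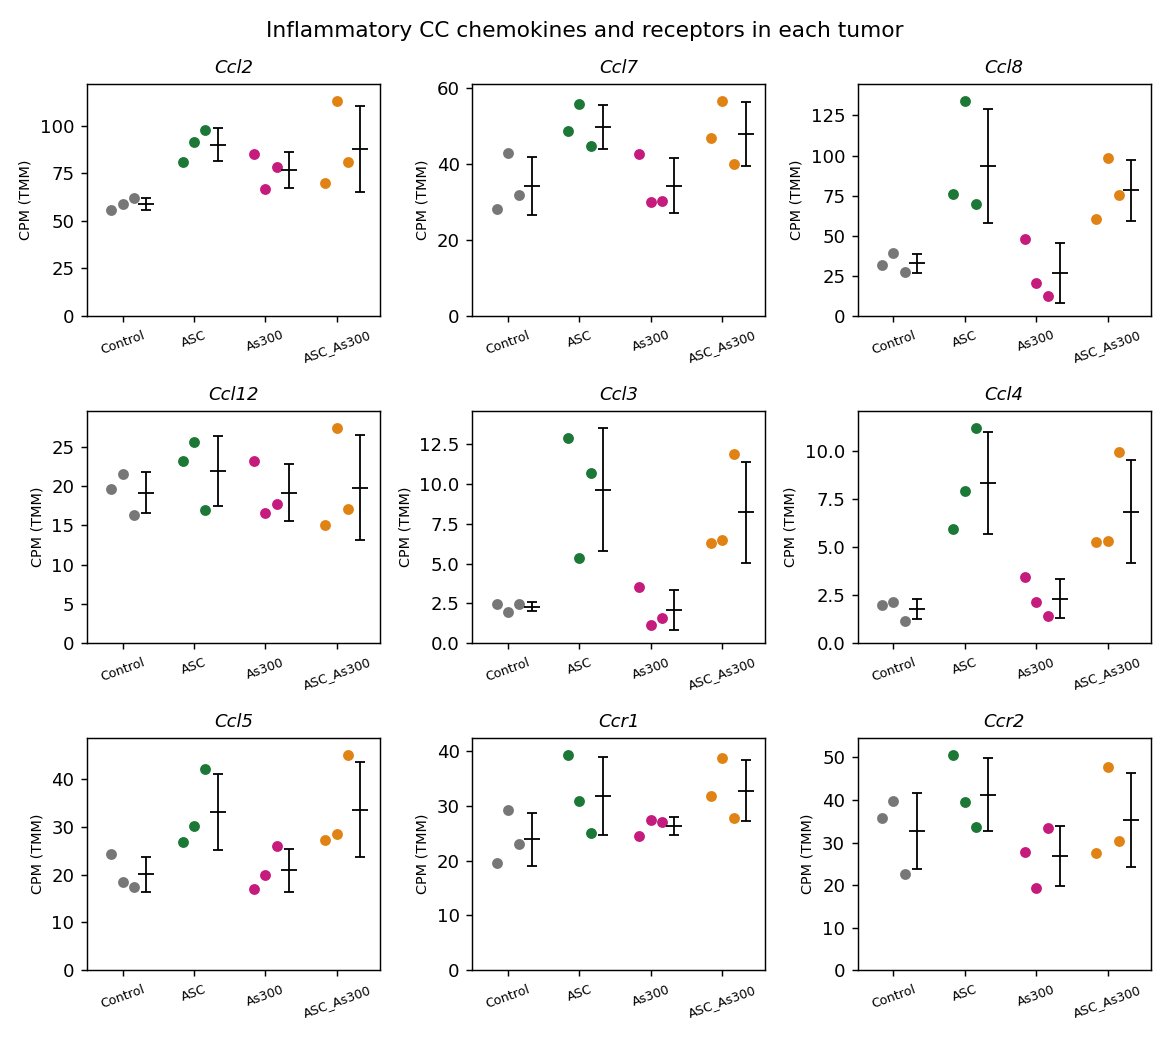
Level of each gene in CPM (vertical axis, from 0) in the 12 tumors (points), by group, with the mean and SD of each group (black bars, n = 3). For Ccl3, Ccl4, Ccl5 and Ccl8, all 6 tumors with ASC lie above all 6 without ASC, and for Ccl12 and Ccr2 the groups overlap.

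Ccl3 and Ccl4 rose with ASC. Ccl3, a ligand of CCR1 and a chemoattractant of macrophages and T cells, was at 2.46, 1.98 and 2.45 CPM in the Control tumors and at 12.9, 5.36 and 10.7 CPM in the ASC tumors. In As300 tumors it was at 3.50, 1.17 and 1.57 CPM, and in ASC_As300 tumors at 6.31, 6.48 and 11.9 CPM. The 6 tumors with ASC were all above the 6 without, with the lowest ASC tumor at 5.36 CPM and the highest tumor without ASC at 3.50 CPM. Over both iAs levels, Ccl3 was 4.08-fold higher with ASC (log2 fold change 2.03, interval 1.38 to 2.68, edgeR adjusted p = 0.00197). It was also called in ASC against Control (log2 fold change 2.07, interval 1.15 to 2.99, adjusted p = 0.0412) and in ASC_As300 against As300 (1.99, interval 1.07 to 2.91, adjusted p = 0.048), pairs of groups that share no tumors but do share the estimate of the spread. In ASC_As300 against Control it was 1.84 on the log2 scale (interval 0.93 to 2.75, adjusted p = 0.0584) and not called, but it was called in 8 of 21 alternatives, with the lowest adjusted p, 0.000355, from DESeq2. Because these are bulk tumors, a different number of cells of a type and a different amount of RNA per cell cannot be told apart. The study also names Ccl3 in a network of genes upregulated in these same tumors, in a sentence that leaves the group unclear. The call of Ccl3 here is thus not independent evidence. The call over both iAs levels held under all 20 alternatives, including without Control replicate 1 (log2 fold change 2.05, adjusted p = 0.00635). The call in ASC against Control was lost in 7 of 21, namely without Control replicate 1 (adjusted p = 0.0915), Control replicate 2 (0.152), Control replicate 3 (0.148), ASC replicate 3 (0.134), As300 replicate 3 (0.0527), ASC_As300 replicate 1 (0.0506) or ASC_As300 replicate 2 (0.057). The call in ASC_As300 against As300 was lost in 14 of 21. Among these were the fits without any 1 of the Control tumors, of ASC replicates 1 and 3, of As300 replicates 2 and 3 or of the ASC_As300 tumors, with the highest adjusted p, 0.225, without As300 replicate 3.

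Ccl4, a macrophage inflammatory protein whose gene lies 13228 bases from Ccl3, was at 1.98, 2.13 and 1.17 CPM in Control tumors and at 5.93, 7.93 and 11.2 CPM in ASC tumors. In As300 tumors Ccl4 was at 3.43, 2.13 and 1.41 CPM, and in ASC_As300 tumors at 5.29, 5.29 and 9.93 CPM. Again every tumor with ASC was above every tumor without it. Over both iAs levels Ccl4 was 3.74-fold higher with ASC (log2 fold change 1.90, interval 1.33 to 2.48, adjusted p = 0.000884), a call that held under all 20 alternatives. It was called in ASC against Control (2.24, interval 1.42 to 3.06, adjusted p = 0.00969) and in ASC_As300 against Control (1.95, interval 1.14 to 2.77, adjusted p = 0.0217). In ASC_As300 against As300 its log2 fold change was 1.56 (interval 0.76 to 2.37, adjusted p = 0.0782) and it was not called. Without Control replicate 3, its lowest tumor, the call in ASC against Control was lost (adjusted p = 0.0594). The call in ASC_As300 against Control was lost without Control replicate 2 (0.0669), Control replicate 3 (0.109) or ASC_As300 replicate 3 (0.13), and the value was 2.05 without Control replicate 1 (adjusted p = 0.0493). The ratio of Ccl3 to Ccl4 in CPM ranged from 0.548 in As300 replicate 2 to 2.17 in ASC replicate 1, and in the ASC_As300 tumors it was 1.19, 1.22 and 1.19.

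Ccl5, the RANTES chemokine made by activated T cells and NK cells among others, followed the same order with a smaller change. It was at 24.2, 18.5 and 17.4 CPM in Control tumors, 26.9, 30.2 and 42.0 CPM in ASC, 17.0, 19.8 and 25.9 CPM in As300 and 27.3, 28.5 and 44.9 CPM in ASC_As300. The lowest tumor with ASC, at 26.9 CPM, was just above the highest without, at 25.9 CPM. Over both iAs levels the log2 fold change of Ccl5 was 0.70 (interval 0.34 to 1.06, adjusted p = 0.0538), which missed the threshold. It was called in 7 of 20 alternatives, among them the DESeq2 Wald test (0.69, adjusted p = 0.00105) and the fit without Control replicate 1 (0.78, adjusted p = 0.0303). In the separate comparisons its log2 fold change was 0.72 in ASC against Control (adjusted p = 0.177), 0.74 in ASC_As300 against Control (0.169) and 0.68 in ASC_As300 against As300 (0.319).

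Of the monocyte chemoattractants, Ccl8 had the largest difference and the largest spread. Its levels were 31.8, 39.2 and 27.2 CPM in Control tumors and 76.0, 134 and 69.9 CPM in ASC tumors. They were 48.0, 20.3 and 12.3 CPM in As300 and 60.8, 98.4 and 75.7 CPM in ASC_As300. The 6 tumors with ASC were above the 6 without, and the lowest and highest of the 12 tumors differed 10.9-fold. Over both iAs levels Ccl8 was 2.89-fold higher with ASC (log2 fold change 1.53, interval 0.74 to 2.31, adjusted p = 0.0778), which was not called. It passed in 3 of 20 alternatives, with DESeq2 (adjusted p = 0.00125), without robust estimation of the spread (0.014) and without As300 replicate 1 (0.00508), the As300 tumor with the highest level. That tumor also had the highest sum of skeletal muscle markers, and a link to Ccl8 was not tested. The interval of its log2 fold change was 0.40 to 2.62 in ASC against Control (adjusted p = 0.197) and 0.43 to 2.66 in ASC_As300 against As300 (adjusted p = 0.316).

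Ccl2, the principal ligand of CCR2, was at 55.6, 59.1 and 61.8 CPM in Control tumors. It was at 80.8, 91.3 and 97.8 CPM in ASC, 85.0, 66.5 and 78.4 CPM in As300 and 69.8, 113 and 80.7 CPM in ASC_As300. All 9 tumors that received ASC, iAs or both were above the 3 Control tumors. The share of all genes with this pattern was not counted. In the single pairs against Control, 9.94% of all genes (ASC), 14.5% (As300) and 13.5% (ASC_As300) were higher without overlap. Ccl2 was not called in any of these comparisons. The log2 fold change of Ccl2 against Control was 0.61 in ASC (interval 0.29 to 0.94, adjusted p = 0.0823), 0.38 in As300 (interval 0.06 to 0.71, adjusted p = 0.141) and 0.58 in ASC_As300 (interval 0.25 to 0.90, adjusted p = 0.0919). Between ASC_As300 and As300 it was 0.20 (interval -0.13 to 0.52, adjusted p = 0.718), and the interaction of ASC and iAs was -0.42 (interval -0.87 to 0.04, adjusted p = 0.404). In ASC against Control, Ccl2 was called in 5 of 21 alternatives, with the lowest adjusted p, 0.00574, from DESeq2.

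Ccl7, another ligand of CCR2 whose gene lies 8258 bases from Ccl2, was at 28.3, 42.9 and 31.9 CPM in Control and 48.7, 56.0 and 44.8 CPM in ASC tumors. It was at 42.7, 30.01 and 30.4 CPM in As300 and 47.0, 56.7 and 40.0 CPM in ASC_As300. Of the 6 tumors with ASC, 5 were above every tumor without it. The log2 fold change over both iAs levels was 0.51 (interval 0.23 to 0.79, adjusted p = 0.0737) and Ccl7 was not called. Ccl12, a further ligand of CCR2 in the mouse, was at 19.7, 21.5 and 16.4 CPM in Control, 23.2, 25.6 and 17.0 CPM in ASC, 23.2, 16.5 and 17.7 CPM in As300 and 15.0, 27.4 and 17.0 CPM in ASC_As300. These groups overlapped throughout. The log2 fold change of Ccl12 with ASC over both iAs levels was 0.12, and its interval of -0.22 to 0.46 leaves out a change of 1.5-fold. Ccl12 and Ccl8, whose genes are 11784 bases apart, thus had intervals of the ASC effect that did not overlap, a difference between genes that was not itself tested.

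Neither receptor passed the test. Ccr1, carried by monocytes, macrophages and neutrophils, was at 19.6, 29.1 and 23.0 CPM in Control tumors, 39.2, 30.8 and 25.1 CPM in ASC, 24.4, 27.5 and 27.1 CPM in As300 and 31.7, 38.7 and 27.8 CPM in ASC_As300. Its log2 fold change with ASC over both iAs levels was 0.36 (interval 0.10 to 0.63, adjusted p = 0.24). Ccr2, the receptor of classical monocytes, was at 35.8, 39.7 and 22.6 CPM in Control, 50.5, 39.6 and 33.8 CPM in ASC, 27.8, 19.3 and 33.4 CPM in As300 and 27.5, 47.9 and 30.4 CPM in ASC_As300. Its log2 fold change with ASC was 0.36 (interval -0.09 to 0.82, adjusted p = 0.592). Both receptors had ASC tumors that overlapped the Control tumors. Between ASC_As300 and As300 the ranges of Ccr1 did not overlap (27.8 to 38.7 against 24.4 to 27.5 CPM), while those of Ccr2 did. Of all genes, 11.3% were higher without overlap in that comparison. Neither receptor was called in any comparison.

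**Figure D2:**
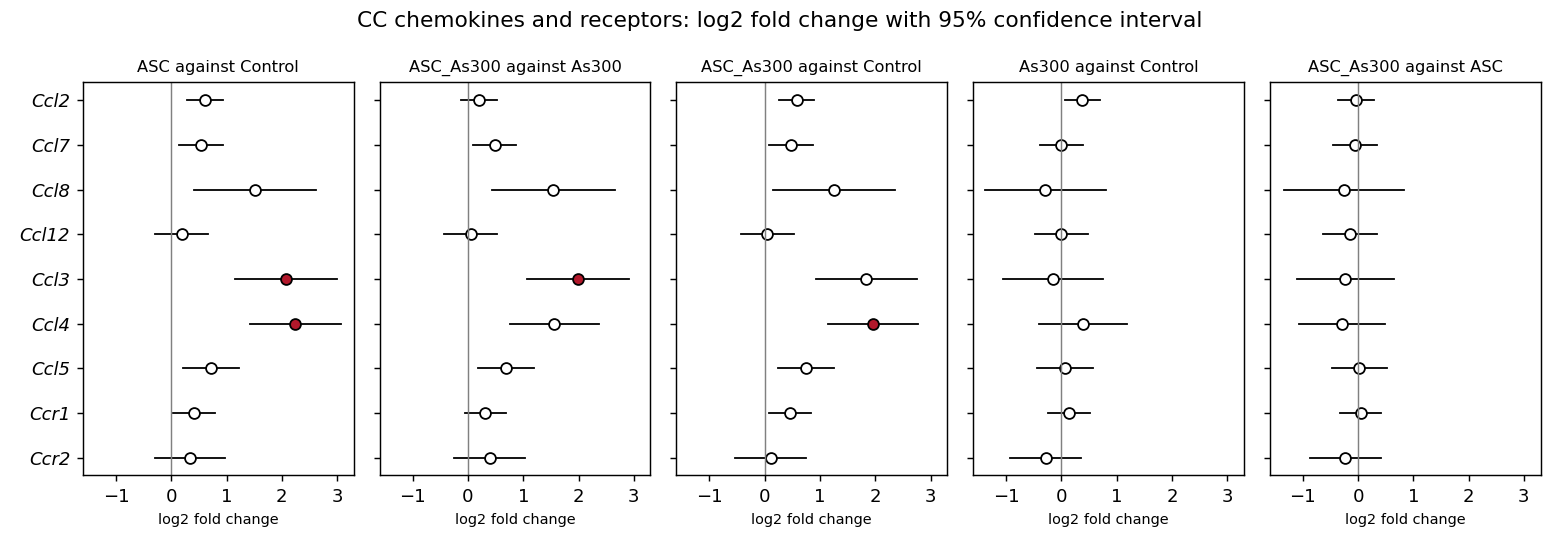
Log2 fold change (horizontal axis) of each gene in 5 comparisons, with the 95% confidence interval (lines). Filled points are called, which is so for Ccl3 and Ccl4 in ASC against Control, for Ccl4 in ASC_As300 against Control and for Ccl3 in ASC_As300 against As300, and no point is filled in As300 against Control or in ASC_As300 against ASC.

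All 9 log2 fold changes with ASC over both iAs levels were positive, and 2 of 9 passed the test. In ASC against Control, 2 of 9 were called higher, where 0.802% of all genes tested were. Of the 9, 7 were higher at an unadjusted p under 0.05 (8.62% of all genes) and 6 had no overlap between the groups (9.94% of all genes). All 9 log2 fold changes were positive, with a median of 0.61 against 0.00 (-0.0044) over all genes. In ASC_As300 against Control, 1 of 9 was called (0.841% of all genes called higher), 7 were higher at an unadjusted p under 0.05 (8.76%) and 5 did not overlap (13.5%), with a median of 0.58. In ASC_As300 against As300, which shares no tumors with ASC against Control, 1 of 9 was called (0.855%), 5 were higher at an unadjusted p under 0.05 (6.3%) and 5 did not overlap (11.3%), with a median of 0.48. Over both iAs levels, 2 of 9 were called (1.38%), 7 were higher at an unadjusted p under 0.05 (6.88%), 4 had all tumors with ASC above all tumors without (1.68%), and the median was 0.51. No member was lower at an unadjusted p under 0.05 in these 4 comparisons. The members were chosen with earlier results of these data known, and some varied together, as Ccl3 and Ccl4 did (correlation 0.881 over 12 tumors). The counts beside the shares of all genes are therefore a description and not a test.

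Exposure to iAs moved none of the 9 past the threshold. In As300 against Control, edgeR called 0 of 9, while 0.97% of all genes were called higher. Of the 9, 1 (Ccl2) had an unadjusted p under 0.05, beside 24.1% of all genes in either direction, and Ccl2 was also the 1 member without overlap (14.5% of all genes higher without overlap). The median of the members was 0.00 (-0.001), from -0.29 for Ccl8 to 0.39 for Ccl4. In ASC_As300 against ASC, 0 of 9 were called, as were 0% of all genes in the higher direction, and 0 of 9 had an unadjusted p under 0.05 (3.03% of all genes in either direction). The log2 fold change in that comparison was -0.23 for Ccl3 (interval -1.11 to 0.64) and -0.29 for Ccl4 (interval -1.07 to 0.49). For Ccl3 the interval holds a change of 1.5-fold in either direction. Over both ASC levels iAs gave 0 calls among the 9, with 0% of all genes called higher, and 0 members at an unadjusted p under 0.05 (15.9% of all genes in either direction). The interaction of ASC and iAs was called for 0 of 9, with 0 at an unadjusted p under 0.05, and for 0% of all genes in the higher direction. It was -0.08 for Ccl3 (interval -1.35 to 1.18) and -0.68 for Ccl4 (interval -1.80 to 0.44), intervals that hold changes of more than 1.5-fold. DESeq2 called 0 of 9 in each of these 4 comparisons as well.

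**Figure D3:**
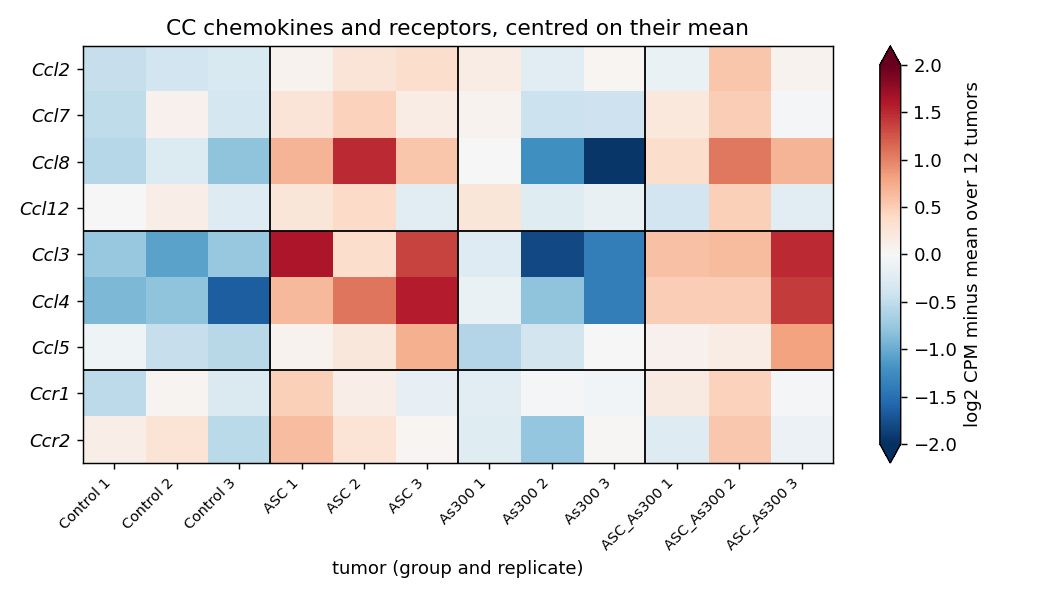
Log2 CPM of each gene (rows) in each tumor (columns, by group and replicate), minus the mean of that gene over the 12 tumors, on a color scale of log2 units. Ccl3 and Ccl4 are red in all 6 tumors with ASC and blue in all 6 without, and in ASC_As300 the monocyte chemoattractants (top) are highest in replicate 2 while Ccl3, Ccl4 and Ccl5 (middle) are highest in replicate 3.

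Tumors of the same group differed in which ligands were high. In ASC_As300, replicate 2 was above its group mean for Ccl2, Ccl7, Ccl8, Ccl12, Ccr1 and Ccr2, by 0.39 for Ccl2 and 0.52 for Ccl12 on the log2 scale. In that tumor Ccl3 (-0.28), Ccl4 (-0.30) and Ccl5 (-0.20) were below the mean of the group. ASC_As300 replicate 3 had the opposite signs for each of the 9 genes, with Ccl3 above the group mean by 0.59, Ccl4 by 0.60 and Ccl5 by 0.46. ASC replicate 2 had the highest Ccl8 of its group (0.59 above the mean) and the lowest Ccl3 (-0.75), and ASC replicate 3 the highest Ccl4 (0.47) and Ccl5 (0.37) and the lowest Ccl8 (-0.35). As300 replicate 1 was highest in its group for Ccl3 (0.90) and Ccl4 (0.64) and lowest for Ccl5 (-0.27).

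Promoter sequences were at hand for 5 of the 9 members (RefSeq, GRCm38.p6). The 150 bases before the annotated start are shown for Ccl3, which was called, and for the neighbors Ccl8 and Ccl12, whose levels differed with ASC by unlike amounts, with motif matches in capitals.
Ccl3 (chr11:83649379-83649528, minus strand): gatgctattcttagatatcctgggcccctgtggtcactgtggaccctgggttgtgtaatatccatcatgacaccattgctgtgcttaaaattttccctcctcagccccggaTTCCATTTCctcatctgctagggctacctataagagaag
Ccl8 (chr11:82115035-82115184, plus strand): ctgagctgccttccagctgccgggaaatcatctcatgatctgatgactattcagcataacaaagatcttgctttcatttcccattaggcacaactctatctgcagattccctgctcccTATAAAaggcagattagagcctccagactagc
Ccl12 (chr11:82101695-82101844, plus strand): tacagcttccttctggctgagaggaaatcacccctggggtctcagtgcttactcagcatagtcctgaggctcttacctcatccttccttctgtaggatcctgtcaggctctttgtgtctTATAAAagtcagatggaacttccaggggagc
The motifs, searched on both strands of the whole RefSeq window of 300 bases around the start, were TTCNNNGAA (the gamma-activated site), GAAANNGAA (the core of interferon response elements), TGANTCA (AP-1), TATAAA and the NF-kB consensus by name. No window held more than 1 match, so that no matches overlapped. In Ccl3, GAAANNGAA matched on the opposite strand from 39 to 31 bases before the start, a motif found in 8.56% of the 32851 promoter windows. Positions are counted from the RefSeq start, which for Ccl3 lies upstream of the GENCODE start given above. Ccl8 and Ccl12 each held TATAAA, whose last base was 27 bases before the start in Ccl8 and 26 in Ccl12, found in 13.6% of windows. No TTCNNNGAA (8.3% of windows) and no TGANTCA (7.81%) was present in any of the 5 windows, the NF-kB consensus (8.46%) matched in that of Ccr1, and GAAANNGAA also matched in that of Ccr2. These are matches of letters and not measured binding.

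Among 25 other genes of the CC chemokine system, 21 were tested. With ASC over both iAs levels, 1 of the 21 was called higher, where 1.38% of all genes were, and 0 lower. The median log2 fold change was -0.015 over the 21. The gene called was Ccrl2. This receptor-like protein, which binds chemerin without signaling, was between 1.47 and 3.40 CPM without ASC and between 4.53 and 6.70 CPM with ASC. Its log2 fold change was 1.23 over both levels (adjusted p = 0.00297) and 1.49 in ASC_As300 against As300 (adjusted p = 0.0196), where the call was lost without As300 replicates 1 or 3 or ASC_As300 replicates 1 or 2. Ackr2, which scavenges inflammatory CC chemokines, was under 1 CPM in every tumor (log2 fold change -0.17 with ASC over both levels, interval -1.19 to 0.84, adjusted p = 0.948). Ccl21a, a chemokine of lymph nodes, was at 33.5 CPM in Control replicate 1 and at most 1.36 CPM in the other 11 tumors. Ccl26 had no counts in any tumor, and Ccl19, Ccl20 and Ccr10 did not pass the filter.

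**Figure D4:**
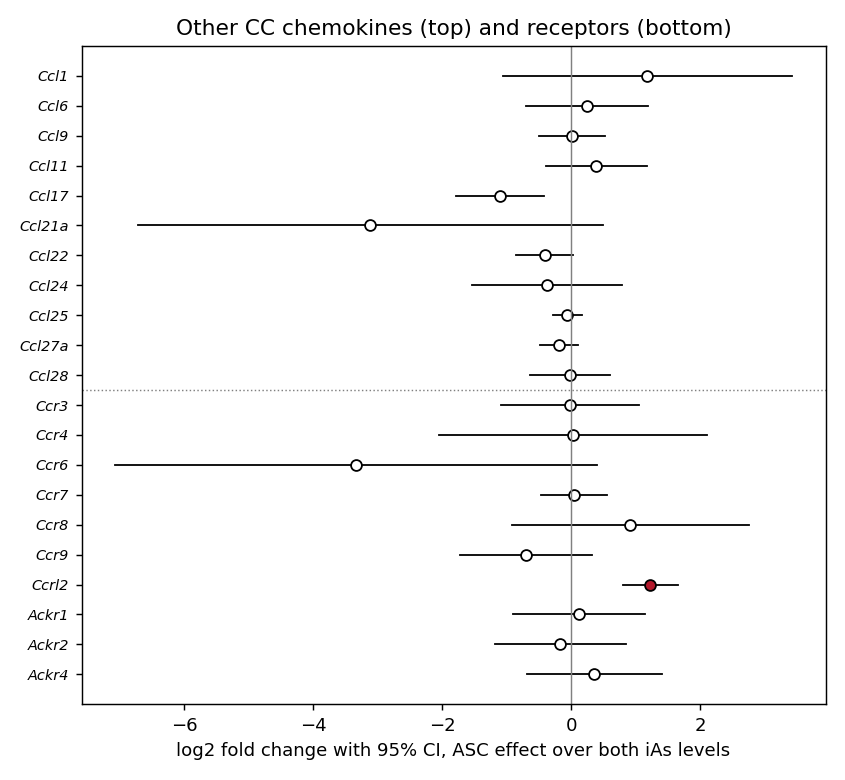
Log2 fold change with ASC over both iAs levels (horizontal axis, with 95% confidence intervals) for 21 other CC chemokines, receptors and atypical receptors tested. The filled point is called, which is Ccrl2, and the widest intervals belong to Ccr6 and Ccl21a.

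Of 17 cytokines and transcription factors known to induce CC chemokines, 4 were called higher with ASC over both iAs levels, where 1.38% of all genes were, and 0 lower, and the median log2 fold change of the list was 0.07. Ifng, the type II interferon, was at 0.103, 0.23 and 0.0868 CPM in Control tumors, 2.31, 1.72 and 2.24 CPM in ASC, 0.3, 0 and 0.406 CPM in As300 and 1.86, 2.21 and 3.52 CPM in ASC_As300. Its log2 fold change was 3.63 (adjusted p = 0.00232), and in As300 replicate 2 it had no counts. With at most 0.406 CPM in the tumors without ASC, the size of this change is uncertain. In ASC against Control, Ifng was called by edgeR (3.86, adjusted p = 0.043), but this call was lost in 11 of 19 alternatives. Irf1 was between 50.7 and 68.1 CPM without ASC and between 143 and 188 CPM with it (1.57, adjusted p = 7.67e-07), and Irf1 was called under every alternative. Irf7 (1.23, adjusted p = 0.0216) and Irf5 (0.60, adjusted p = 0.00275) were also called, and these calls were lost in 7 and 3 of 20 alternatives. Irf7 was lost without any 1 of the As300 tumors or ASC_As300 replicates 2 or 3 (adjusted p up to 0.0683), without a filter on low counts (0.0604) and with a replicate block (0.0669), and Irf5 fell under 1.5-fold without Control replicate 3, As300 replicate 2 or ASC_As300 replicate 2. The subunits of NF-kB did not pass the test, with log2 fold changes of 0.04 for Nfkb1, 0.07 for Nfkb2, 0.02 for Rela and 0.05 for Relb. Tnf had a log2 fold change of 1.12 (adjusted p = 0.0585), Il1b of 0.63 (0.24) and Il6 of -0.02 (0.998). Of 16 genes of receptor coupling and migration, such as Gnai2, Pik3cg, Dock2 and Rac2, 0 were called by edgeR in any comparison, and their log2 fold changes with ASC lay between -0.07 and 0.50.

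**Figure D5:**
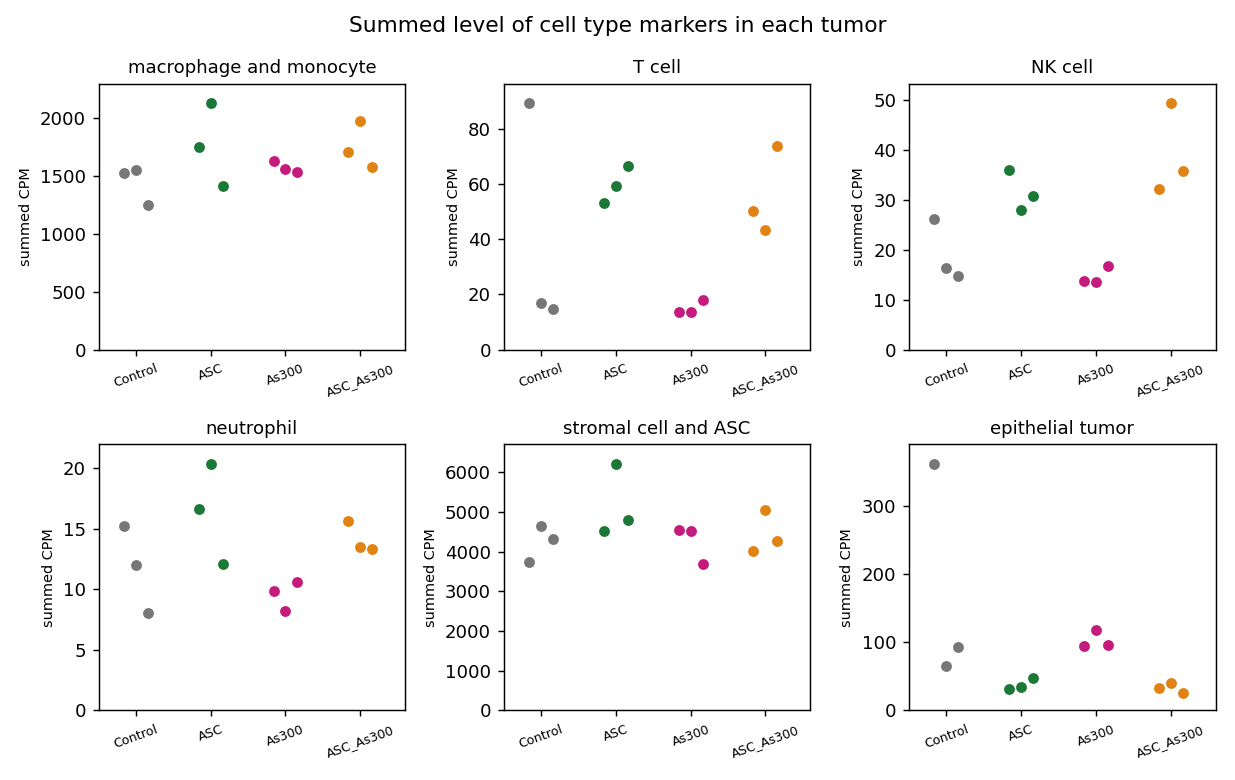
Summed CPM of the markers of 6 cell types (vertical axes, from 0) in the 12 tumors (points), by group. The summed NK cell markers, mainly Prf1 and Klrk1, are higher and the summed epithelial markers, mainly Krt8, lower in all 6 tumors with ASC than in all 6 without. T cell markers are higher with ASC apart from Control replicate 1, and the macrophage and stromal ranges overlap.

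Markers of cells that can make or answer these chemokines were also compared with ASC over both iAs levels, where 1.38% of all genes were called higher. Those called higher were 1 of 12 for macrophages and monocytes, 1 of 7 for NK cells, 0 of 9 for T cells and 0 of 7 for neutrophils. In lists this short, 0 calls do not show an unchanged level, and the median log2 fold change of the T cell markers was 1.26. The sums given here were not tested. The 12 macrophage and monocyte markers summed to 1245 to 1628 CPM without ASC and 1409 to 2127 CPM with ASC, and none was at 0 in any tumor. Fcgr1, the high-affinity IgG receptor, was the 1 of 12 called over both iAs levels (log2 fold change 1.02, adjusted p = 0.00012). C1qa, a complement component made by macrophages, was called in ASC against Control (0.81, adjusted p = 0.0012) and ASC_As300 against Control (0.76, adjusted p = 0.00206), and Cd14 in As300 against Control (0.59, adjusted p = 0.0286). The 7 NK cell markers summed to 13.5 to 26.2 CPM without ASC and 28.0 to 49.4 CPM with ASC, without overlap. In both groups with ASC, Prf1 and Klrk1 had the highest mean levels of the 7. Mean Ncr1 was 0.736 CPM in ASC against 1.06 CPM in Control, and 1.78 CPM in ASC_As300 against 0.775 CPM in As300. Klrk1, which encodes the activating receptor NKG2D, was the 1 of 7 called (1.77, adjusted p = 0.000287), and T cells carry it too. The NK cell markers Ncr1 (0.34, adjusted p = 0.85) and Klrb1c (0.18, adjusted p = 0.922) were not called. The 9 T cell markers summed to 13.7 to 89.4 CPM without ASC, the highest in Control replicate 1, and to 43.6 to 73.9 CPM with ASC. Without that tumor the highest sum without ASC was 18.2 CPM. None of the 9 was called, and 0 were at 0 in any tumor. Ccl3 and Ccl4 in Control replicate 1, at 2.46 and 1.98 CPM, were within the range of the other Control and As300 tumors. Ccl5 in that tumor, at 24.2 CPM, was the highest of the Control tumors and within the range of As300 (17.0 to 25.9 CPM). These are values of 1 tumor, and a link to its T cell markers was not tested. The 7 neutrophil markers summed to 8.01 to 15.2 CPM without ASC and 12.1 to 20.3 CPM with ASC, and without Control replicate 1 the highest sum without ASC was 12.01 CPM. Krt8, which carried the epithelial sum given above, had a log2 fold change of -2.03 with ASC over both iAs levels (adjusted p = 0.052) and was not called, and 2 of the 6 epithelial markers had a positive log2 fold change. The part of these cell types in the differences of the members was not tested.

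The genes whose pattern was most like that of the called members were found by the root mean square difference in log2 CPM, each gene centred on its mean over the 12 tumors. For Ccl3 these were Gm4951 (0.413), Irgm1 (0.42) and Fgl2 (0.436), where the median over all genes was 1.16. Irgm1, an interferon-inducible GTPase, was at 27.6 ± 6.97 CPM (SD, n = 3) in Control, 125 ± 13.0 in ASC, 23.9 ± 5.45 in As300 and 125 ± 19.8 in ASC_As300. The genes nearest to Ccl4 were Ly6a (0.32), Psmb8 (0.392) and Psmb10 (0.414), where the median was 1.10. Ly6a, the surface antigen Sca-1, was at 67.2 ± 11.9 CPM (SD, n = 3) in Control, 227 ± 33.9 in ASC, 74.1 ± 20.7 in As300 and 226 ± 34.7 in ASC_As300. Psmb8 and Psmb10 encode subunits of the immunoproteasome. Likeness was searched over the same tumors in which the members were called, and it is a description.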

How the data were processed

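Total RNA from 12 tumors was sequenced as stranded, poly(A)-selected, paired-end libraries. The authors deposited 1 table of counts, whole numbers per Ensembl gene without normalization. The submitters' processing notes list cutadapt 1.1.0, HISAT2 2.0 and StringTie 1.3.4. The genome build, the annotation and the step that made the counts are not given in the sources used here. Low counts were more frequent at 4 (1137 to 1298 genes per tumor) than at 3 (618 to 795), so that 1 count need not be 1 read pair. Total counts per tumor ranged from 39157647 to 55168642.

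Counts were filtered with filterByExpr by group (20818 genes kept), scaled by TMM (factors 0.9535 to 1.054) and fitted with the robust quasi-likelihood model of edgeR 4.0.16 in R 4.3.3, with 1 mean per group over all 12 tumors and without covariates. P-values of the F test were adjusted over all genes tested (Benjamini-Hochberg), and a call needed an adjusted p under 0.05 and a 1.5-fold change. An exact test of 3 against 3 tumors cannot go below p = 0.1, so p-values come from this model. Log2 CPM carries a prior count of 2. The procedure was tested on simulated data. Symbols, exon lengths and coding sequences came from GENCODE M21 (GRCm38), matching 55141 genes, and promoters from RefSeq. The members, gene lists and tests were chosen with earlier results of these data known. Named genes are the 9 members, the called genes of the lists with Ackr2, and the 3 genes most like each called member, while Ccl21a, Ccl26, Tnf, Il1b, Il6, the NF-kB subunits and the markers that were not called were named after their values were seen. Alternatives were the DESeq2 1.42.0 Wald test, DESeq2 size factors, no filter, at least 10 counts in every tumor, counts divided by 4, a replicate block, no minimum fold, only the 6 tumors compared and leaving out each tumor. Some items are not reported here. A fit without robust estimation was added after seeing the data.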

Additional observations from a re-analysis of the deposited data

How the results depend on the processing

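The directions of Ccl3, Ccl4, Ccl5, Ccl7 and Ccl8 with ASC were kept under every alternative, and the calls of Ccl3 and Ccl4 over both iAs levels were kept under all 20. The number of members called in single comparisons depended on the setting. In ASC against Control it was 2, with 5 by DESeq2 and 0 to 3 when 1 tumor was left out. In ASC_As300 against Control it was 1, with 3 by DESeq2, 2 with at least 10 counts in every tumor, 2 with counts divided by 4, 3 with only the 6 tumors compared, and 0 to 2 when 1 tumor was left out. In ASC_As300 against As300 it was 1, with 2 by DESeq2, 0 with DESeq2 size factors, 0 without a filter, 0 without robust estimation, 0 with only the 6 tumors, and 0 to 2 when 1 tumor was left out. Over both iAs levels it was 2, with 4 by DESeq2 and 2 to 4 when 1 tumor was left out. The cause was not tested. The median of the members in ASC_As300 against Control ran from 0.359 without ASC_As300 replicate 2 to 0.729. With 1 tumor left out, directions turned where changes were near 0. Ccl12 ran from -0.255 to 0.223 in ASC_As300 against Control, from -0.278 to 0.208 against As300 and from -0.037 to 0.202 over both iAs levels. Ccr2 ran from -0.171 to 0.284 in ASC_As300 against Control, Ccl2 from -0.044 to 0.325 in ASC_As300 against As300, and Ccl3 from -0.592 to 0.021 in ASC_As300 against ASC.

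No pairing of the tumors by replicate number was seen. Of 18 pairs with the same number, 2 had correlated deviations over 0.1, and 3 of 12 tumors correlated best with their own number. With 3 tumors per group this cannot exclude a batch shared by tumors of the same number. With a replicate block, the counts of members called were 2 in ASC against Control, 1 in ASC_As300 against Control (Ccl3, adjusted p = 0.0237, in place of Ccl4, 0.0538), 1 in ASC_As300 against As300 and 3 over both iAs levels (with Ccl5, 0.0264), and the call of Irf7 over both iAs levels was lost (0.0669). Over all genes, most counts called higher or lower moved by more than 1.5 times in at least 1 alternative. The count called higher over both iAs levels did not. They were 167 and 6 in ASC against Control (373 and 77 by DESeq2, 107 to 361 and 2 to 87 with 1 tumor left out, the most without ASC replicate 1). They were 202 and 113 in As300 against Control (495 and 321 by DESeq2, 504 and 443 without a minimum fold, 337 and 123 with at least 10 counts, 370 and 114 with counts divided by 4, and 1 to 295 and 0 to 187 with 1 tumor left out, the fewest without Control replicate 2 or As300 replicate 2). They were 175 and 5 in ASC_As300 against Control (317 and 73 by DESeq2, 92 to 230 and 1 to 17), 178 and 13 in ASC_As300 against As300 (308 and 91 by DESeq2, 102 to 256 and 3 to 53) and 287 and 23 over both iAs levels (393 and 85 by DESeq2, 224 to 407 and 11 to 35). Where edgeR called 0 and 0, DESeq2 called 4 and 7 in ASC_As300 against ASC, 30 and 84 for iAs over both ASC levels and 29 and 145 for the interaction. With 3 tumors per group, the intervals of the ASC effect over both iAs levels still reached 0.629 for Ccr1 and 0.815 for Ccr2 on the log2 scale.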
